A study of Mus musculus with 4 samples.

Results

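Follicular B cells are the recirculating B cells of the spleen, and 7 genes that mark them or place them in the follicle were followed here in B220+ splenocytes: *Fcer2a*, *Klf2*, *Satb1*, *Il4ra*, *Btla*, *Ccr7* and *Cxcr5*. They were chosen by name, with earlier results of these data known, as rows of the count table out of 41214 genes. All 7 were among the 14554 genes with enough counts to be tested. In MIZ-1DPOZ B220+ cells 6 of the 7 were lower than in MIZ-1WT cells, from *Satb1* at 45.5% of the MIZ-1WT level to *Btla* at 76.4%, while *Cxcr5* stayed at 96.9% and did not pass the test. The share of all tested genes called lower was 18.9%.

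RNA was sequenced from spleens of mice of 2 genotypes, with 2 libraries labelled as biological replicates for each, and the question was how loss of the POZ domain of MIZ-1 changes the transcriptome of resting B cells. MIZ-1DPOZ mice carried *Miz-1* (*Zbtb17*) alleles with a floxed POZ domain and MB1-Cre, a Cre recombinase expressed from the *Cd79a* promoter and therefore active in the B lineage from its early stages, so the cells still make a MIZ-1 protein that lacks the domain through which it pairs with itself. MIZ-1WT animals were the controls, and whether they carried Cre or floxed alleles is not given in the sources used here. All lines were on a C57BL/6 background, the ages given are those of young adults for the study as a whole, and cells were pulled out with an antibody to B220 without sorting of follicular or marginal zone cells, so each library mixes the splenic B cell types and whatever else was retained.

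Newly formed B cells that settle in the spleen become either follicular B cells, which recirculate through blood and lymph nodes, or marginal zone B cells, which stay beside the marginal sinus. CXCR5 draws B cells into follicles and CCR7 draws them toward the T cell zone, and the transcription factor KLF2 is known for holding B cells in the follicular state through genes of homing and quiescence. CD23, the low-affinity IgE receptor encoded by *Fcer2a*, is the usual surface marker that separates follicular from marginal zone cells, and interleukin 4 acting through IL-4Ra and STAT6 is a known inducer of it.

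Gene counts summed to between 43026814 and 46387209 per library, and each of the 7 genes had between 2245 and 45672 counts in a library. *Zbtb17* itself had 2087 and 1946 counts in MIZ-1WT and 1774 and 1669 in MIZ-1DPOZ, but counts over the whole gene do not show whether the exons of the POZ domain were lost. *Cd79a*, the locus of the Cre allele, fell by 1.44 on the log2 scale. The libraries also differed in markers of sex: *Xist* had 49 and 60 counts in MIZ-1WT against 38145 and 40838 in MIZ-1DPOZ, and Y-linked *Ddx3y* had 15840 and 14896 counts against 680 and 622. None of the 7 genes lies on a sex chromosome, but genotype and this difference cannot be told apart for any of them. B cell genes were abundant in every library, with 10 pan-B genes summing to between 9071 and 11020 CPM (counts scaled to a common library total, with TMM factors) and *Cd3e*, a defining T cell gene, at 16 to 24 counts. The 16 macrophage markers were all higher in MIZ-1DPOZ, their sum being 949 and 1260 CPM in MIZ-1WT and 5640 and 3566 CPM in MIZ-1DPOZ replicates 1 and 2. MIZ-1DPOZ replicate 1, which had the most macrophage RNA, had the lower CPM of the MIZ-1DPOZ pair for all 7 genes, and the part of macrophage RNA in their values was not tested.

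Promoter sequences are shown for the 4 genes whose level fell most, so that any shared letters can be looked for in them. RefSeq promoters of GRCm38.p6 were found for 5 of the 7 genes and run from 250 bases before to 50 bases after a start site. They are *Fcer2a* at chr8:3694125-3694424 on the minus strand (the most 5′ of 3 starts), *Klf2* at chr8:72318812-72319111 on the plus strand, *Satb1* at chr17:51833241-51833540 on the minus strand (the most 5′ of 5 starts) and *Il4ra* at chr7:125552021-125552320 on the plus strand. Capitals mark matches on either strand to the KLF box CACCC and, at the end of the *Satb1* promoter, to the PU.1 and ETS element GAGGAAGT on the opposite strand.
Fcer2a: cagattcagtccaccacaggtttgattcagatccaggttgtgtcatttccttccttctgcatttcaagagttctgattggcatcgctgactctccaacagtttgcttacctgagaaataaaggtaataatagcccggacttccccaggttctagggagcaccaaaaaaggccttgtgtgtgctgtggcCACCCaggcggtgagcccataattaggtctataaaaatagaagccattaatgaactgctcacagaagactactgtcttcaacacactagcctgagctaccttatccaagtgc
Klf2: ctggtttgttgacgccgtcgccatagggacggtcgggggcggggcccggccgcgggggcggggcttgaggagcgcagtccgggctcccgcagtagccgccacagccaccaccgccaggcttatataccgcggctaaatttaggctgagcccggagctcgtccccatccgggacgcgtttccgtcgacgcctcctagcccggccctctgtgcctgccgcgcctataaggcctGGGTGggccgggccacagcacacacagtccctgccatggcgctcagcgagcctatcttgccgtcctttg
Satb1: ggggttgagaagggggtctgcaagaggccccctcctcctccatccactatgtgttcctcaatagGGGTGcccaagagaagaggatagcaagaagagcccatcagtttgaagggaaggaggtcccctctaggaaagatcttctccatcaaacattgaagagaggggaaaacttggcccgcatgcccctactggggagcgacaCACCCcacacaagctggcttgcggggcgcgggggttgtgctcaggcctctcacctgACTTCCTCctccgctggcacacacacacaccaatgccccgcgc
Il4ra: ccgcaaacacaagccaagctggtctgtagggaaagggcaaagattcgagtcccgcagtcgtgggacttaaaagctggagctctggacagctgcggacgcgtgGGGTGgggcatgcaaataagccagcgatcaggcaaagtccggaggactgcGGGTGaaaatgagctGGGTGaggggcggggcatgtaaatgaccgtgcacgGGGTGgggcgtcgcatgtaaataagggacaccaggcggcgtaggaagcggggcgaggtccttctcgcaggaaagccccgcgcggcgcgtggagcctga

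The CACCC box was present in all 4 of these promoters, with 1 match in *Fcer2a* and *Klf2*, 2 in *Satb1* and 4 in *Il4ra*. It was also present in 57.5% of all 32851 promoters of this length. The *Btla* promoter at chr16:45224087-45224386 held no CACCC box, but 1 match to GAGGAAGT, found in 3.20% of all promoters, and 1 to the E-box CACGTG, found in 7.15%. A STAT6 element (TTC, 4 free bases and GAA, in 6.95% of all promoters) and a FOXO element (GTAAACA, in 3.65%) matched in none of the 5 promoters. Base composition differed widely among them, from 46.0% GC in *Fcer2a* to 69.3% GC with 32 CpG dinucleotides in *Klf2*, against a median of 52.7% GC over all promoters. These matches describe the letters of the windows and not binding. *Ccr7* and *Cxcr5* are named only.

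**Figure D1:**
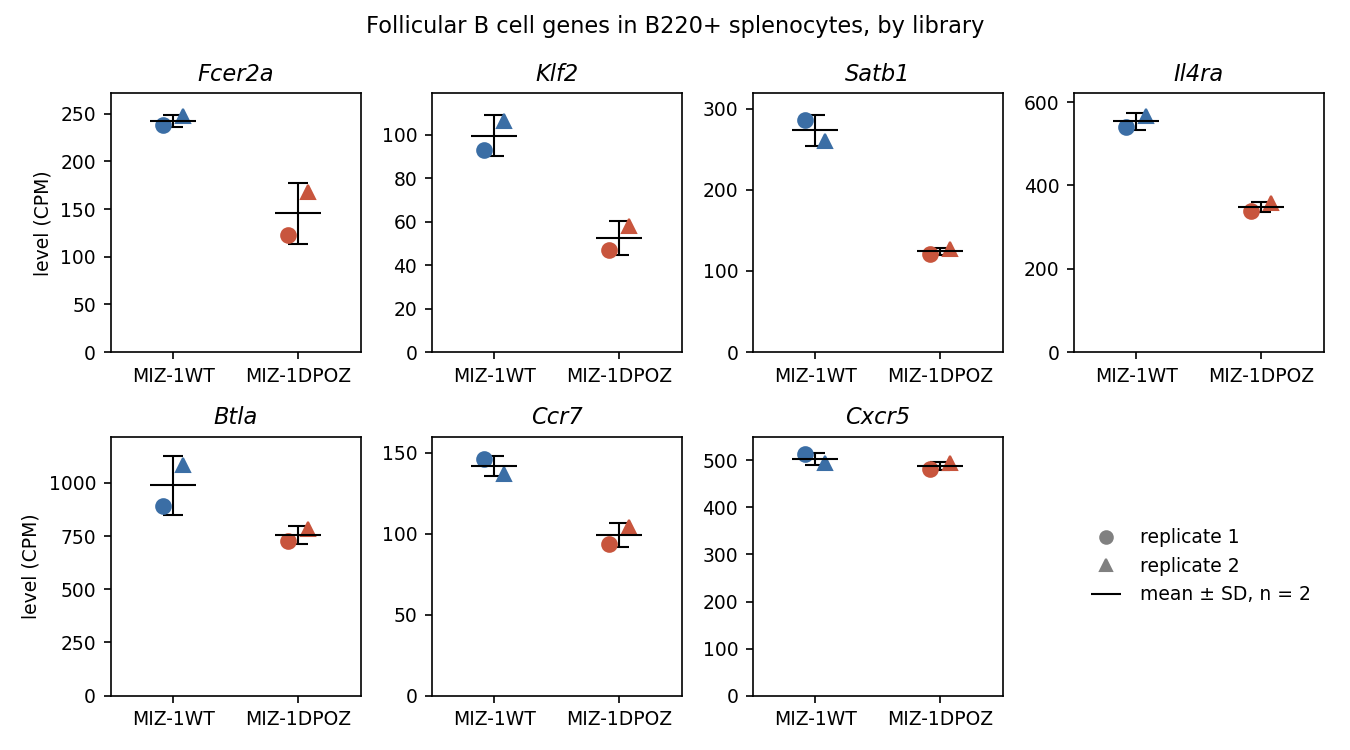
Level of each of the 7 genes in CPM (vertical axis, from 0) in the MIZ-1WT and MIZ-1DPOZ libraries, with circles for replicate 1, triangles for replicate 2 and black lines for the mean ± SD (n = 2). For *Satb1* the MIZ-1DPOZ libraries sit at 121 and 127 CPM below MIZ-1WT libraries at 286 and 259.9 CPM, whereas the points of *Cxcr5* lie between 482 and 513 CPM in all 4 libraries.

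*Klf2* (ENSMUSG00000055148, protein coding, chromosome 8 from 72319033 to 72321656 on the plus strand of GRCm38) had 4055 and 4471 counts in MIZ-1WT replicates 1 and 2 and 2245 and 2551 in MIZ-1DPOZ replicates 1 and 2. In CPM these were 92.9 and 106 against 47.2 and 58.1, a mean of 99.6 ± 9.49 (SD, n = 2) against 52.6 ± 7.74 (SD, n = 2). The groups did not overlap, and the gap between the nearest libraries of the 2 genotypes was 0.68 on the log2 scale, compared with 0.19 within MIZ-1WT and 0.30 within MIZ-1DPOZ. *Klf2* changed by -0.92 on the log2 scale (standard error 0.12, 95% interval -1.21 to -0.63, adjusted p = 0.00333 from edgeR's quasi-likelihood fit, Benjamini-Hochberg adjusted over all tested genes). This was 52.8% of the MIZ-1WT level. Because the libraries are bulk RNA, fewer cells of a type and less RNA per cell cannot be told apart here or for any gene below.

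*Satb1*, which encodes a chromatin organizer that binds AT-rich DNA and is expressed in lymphocytes, showed the largest fall of the 7. The gene (ENSMUSG00000023927, protein coding) lies on chromosome 17 from 51736187 to 51833290 on the minus strand. It had 12500 and 10926 counts in MIZ-1WT and 5778 and 5590 in MIZ-1DPOZ. Both MIZ-1DPOZ libraries, at 121 and 127 CPM, lay far below the MIZ-1WT libraries at 286 and 259.9 CPM, and the mean was 273 ± 18.8 CPM (SD, n = 2) in MIZ-1WT and 124 ± 4.22 CPM (SD, n = 2) in MIZ-1DPOZ. On the log2 scale the change was -1.14 (standard error 0.06, 95% interval -1.29 to -0.98, adjusted p = 0.000739 from edgeR's quasi-likelihood fit, Benjamini-Hochberg adjusted). By p-value *Satb1* ranked 52 among the 14554 genes tested. Its exons share 156 bases with a gene model on the same strand and 128 bases with another on the opposite strand, neither analysed here, out of a summed exon length of 19027 bases.

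*Fcer2a* (ENSMUSG00000005540, protein coding, chromosome 8 from 3681737 to 3694175 on the minus strand) had 10372 and 10385 counts in MIZ-1WT and 5853 and 7363 in MIZ-1DPOZ. The MIZ-1WT libraries were close to each other at 238 and 247 CPM, and the MIZ-1DPOZ libraries lay lower and further apart at 123 and 168 CPM. Means were 242 ± 6.59 CPM (SD, n = 2) and 145 ± 31.7 CPM (SD, n = 2), and the gap between the genotypes of 0.50 on the log2 scale was only a little wider than the gap of 0.45 within MIZ-1DPOZ. CD23 RNA was thus at 59.9% of its MIZ-1WT level, a log2 fold change of -0.74 (standard error 0.14, 95% interval -1.08 to -0.39, adjusted p = 0.0109 from edgeR's quasi-likelihood fit, Benjamini-Hochberg adjusted). The log2 fold change was -0.77 without MIZ-1WT replicate 1 and -0.71 without MIZ-1WT replicate 2, and *Fcer2a* was not called in these fits. They rest on the spread of the MIZ-1DPOZ pair, since 1 MIZ-1WT library is left. It was -0.52 without MIZ-1DPOZ replicate 1 and -0.96 without MIZ-1DPOZ replicate 2, where *Fcer2a* was called.

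*Il4ra*, the subunit that binds interleukin 4 and is shared by the receptors for interleukins 4 and 13, is on chromosome 7 from 125552120 to 125579474 on the plus strand (ENSMUSG00000030748, protein coding). Counts were 23551 and 23869 in MIZ-1WT and 16140 and 15699 in MIZ-1DPOZ, or 539.7 and 568 CPM against 339 and 358 CPM. Libraries of 1 genotype agreed closely, at 554 ± 19.8 CPM (SD, n = 2) and 348 ± 13.1 CPM (SD, n = 2), and the groups stood well apart. The change was -0.67 on the log2 scale (standard error 0.05, 95% interval -0.80 to -0.54, adjusted p = 0.00121 from edgeR's quasi-likelihood fit, Benjamini-Hochberg adjusted). An antisense gene model shares 571 of the 6002 exon bases of *Il4ra*, and the strand setting of the counting is not given in the sources used here.

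*Btla* encodes an inhibitory receptor of B and T cells whose partner is the TNF receptor family member HVEM. The gene (ENSMUSG00000052013, protein coding, chromosome 16 from 45224315 to 45257670 on the plus strand) was the most abundant of the 7, with 38890 and 45672 counts in MIZ-1WT and 34552 and 34459 in MIZ-1DPOZ. Levels were 891 and 1086 CPM against 726 and 785 CPM, with means of 989 ± 138 (SD, n = 2) and 755 ± 41.8 (SD, n = 2). The groups did not overlap, but the gap of 0.18 between them on the log2 scale was narrower than the gap of 0.29 between the MIZ-1WT libraries. The fold change was correspondingly small at -0.39 on the log2 scale (standard error 0.10, 95% interval -0.64 to -0.14, adjusted p = 0.0299 from edgeR's quasi-likelihood fit, Benjamini-Hochberg adjusted). It was -0.24 without MIZ-1WT replicate 2 and -0.32 without MIZ-1DPOZ replicate 1, and in neither case was it called, with adjusted p-values of 0.106 and 0.0607 from the same test.

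The chemokine receptors *Ccr7* and *Cxcr5*, which sense the ligands of the T cell zone and of the follicle, differed from each other. *Ccr7* (ENSMUSG00000037944, protein coding, chromosome 11 from 99144196 to 99155077 on the minus strand) had 6378 and 5772 counts in MIZ-1WT and 4477 and 4586 in MIZ-1DPOZ. That was 146 and 137 CPM against 94.0 and 104 CPM, and means of 142 ± 6.28 (SD, n = 2) and 99.2 ± 7.37 (SD, n = 2), with no overlap of the groups. Its log2 fold change was -0.51 (standard error 0.07, 95% interval -0.68 to -0.35, adjusted p = 0.0037 from edgeR's quasi-likelihood fit, Benjamini-Hochberg adjusted).

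*Cxcr5* (ENSMUSG00000047880, protein coding, chromosome 9 from 44511787 to 44561877 on the minus strand) had 22382 and 20804 counts in MIZ-1WT and 22955 and 21720 in MIZ-1DPOZ. In CPM the MIZ-1WT libraries read 513 and 494.8 and the MIZ-1DPOZ libraries 482 and 494.7, so that the nearest libraries of the 2 genotypes were almost equal and closer than libraries of the same genotype. With means of 504 ± 12.8 (SD, n = 2) and 488 ± 8.89 (SD, n = 2), the log2 fold change was -0.04 (standard error 0.05, 95% interval -0.16 to 0.07, adjusted p = 0.492 from edgeR's quasi-likelihood fit, Benjamini-Hochberg adjusted). The interval spans 89.3% to 105% of the MIZ-1WT level. *Cxcr5* shares 110 of its 3332 exon bases with *Bcl9l* on the opposite strand, a gene with 529 to 726 counts in these libraries.

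Read as a group, 6 of the 7 genes were called lower and 0 higher, where 18.9% of the 14554 tested genes were called lower and 21.1% higher, 40.0% in either direction. The 7 genes had a median of -0.67 on the log2 scale, compared with -0.01 over all tested genes. At a log2 fold change of -0.6 or below with an unadjusted p under 0.05, the fold limit of the study, *Fcer2a*, *Klf2*, *Satb1* and *Il4ra* remained, 4 of 7, where 5.30% of all genes did. Both MIZ-1DPOZ libraries were below both MIZ-1WT libraries for all 7 genes, which was also the case for 37.6% of all tested genes, and 37.2% had both MIZ-1DPOZ libraries above. Because the 7 genes were chosen with earlier results of these data known, setting them beside these shares describes them and is not a test.

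The order of the genes could be compared after dividing by exon length, as RPKM (CPM per kilobase of the summed exons). In MIZ-1WT *Btla* led at 291 ± 40.6 RPKM (SD, n = 2), followed by *Cxcr5* at 151 ± 3.84, *Il4ra* at 92.3 ± 3.30, *Fcer2a* at 78.4 ± 2.13, *Ccr7* at 71.7 ± 3.17, *Klf2* at 53.9 ± 5.14 and *Satb1* at 14.4 ± 0.988. The libraries of neighbours in this order did not overlap in MIZ-1WT. In MIZ-1DPOZ *Fcer2a* at 39.8 and 54.2 RPKM overlapped *Ccr7* at 47.5 and 52.8 RPKM, so their order could not be told, and *Il4ra* at 56.5 and 59.6 RPKM lay just above both. *Btla*, *Cxcr5*, *Klf2* and *Satb1* kept their places, at 222 ± 12.3, 147 ± 2.67, 28.5 ± 4.19 and 6.54 ± 0.222 RPKM (SD, n = 2). The long exons of *Satb1* place it last per length although its MIZ-1WT counts exceeded those of *Fcer2a*, *Klf2* and *Ccr7*.

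**Figure D2:**
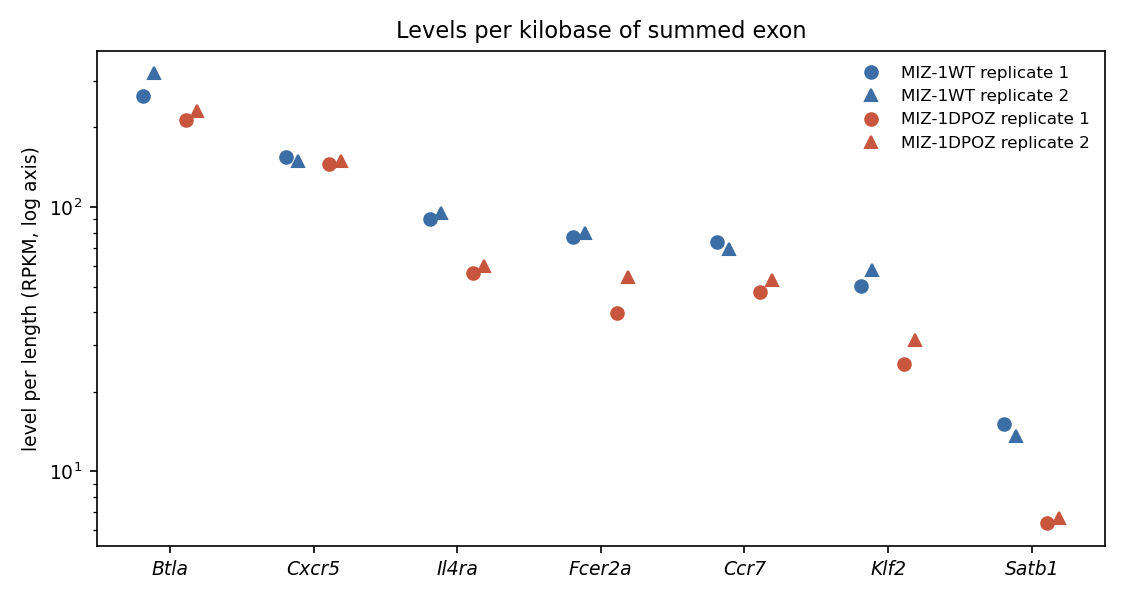
Level per length of each gene in RPKM (vertical axis, logarithmic) in MIZ-1WT (blue) and MIZ-1DPOZ (red) libraries, with circles for replicate 1 and triangles for replicate 2 and genes ordered by the MIZ-1WT mean. *Btla* is highest in every library, *Satb1* is lowest, and the MIZ-1DPOZ points of *Fcer2a* (39.8 and 54.2 RPKM) straddle those of *Ccr7* (47.5 and 52.8 RPKM).

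General B cell genes were themselves lower in MIZ-1DPOZ. Of 10 pan-B genes, 7 were called lower and 0 higher, with a median of -0.24 on the log2 scale, where 18.9% of all tested genes were called lower. Their summed level was 10732 and 11020 CPM in MIZ-1WT and 9071 and 9436 CPM in MIZ-1DPOZ. The 7 genes were therefore also expressed as a percentage of the summed pan-B counts of the same library, for which no p is given because the smallest two-sided exact permutation p with 2 libraries against 2 is 0.333. On this scale *Satb1* was 2.67% and 2.36% in MIZ-1WT and 1.34% and 1.35% in MIZ-1DPOZ, and *Klf2* was 0.866% and 0.965% against 0.520% and 0.616%. *Fcer2a* was 2.21% and 2.24% against 1.36% and 1.78%. All 3 remained below MIZ-1WT in both MIZ-1DPOZ libraries, at 53.5%, 62.0% and 70.3% of the MIZ-1WT mean. *Il4ra* was at 73.9%, *Ccr7* at 82.2% and *Btla* at 89.9% of that mean, the last with MIZ-1DPOZ replicate 2 at 8.32% of the pan-B sum, just above MIZ-1WT replicate 1 at 8.30%. *Cxcr5* stood the other way, at 4.78% and 4.49% in MIZ-1WT and 5.32% and 5.24% in MIZ-1DPOZ, or 114% of the MIZ-1WT mean.

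Fitting all genes with library sizes taken from the pan-B genes shifted the median log2 fold change of all genes by 0.23 and left 5 of the 7 genes called lower, where 5.68% of all genes were called lower and 39.7% higher. *Satb1* (-0.90), *Klf2* (-0.69), *Fcer2a* (-0.51), *Il4ra* (-0.44) and *Ccr7* (-0.28) were called, with adjusted p-values of 0.000250, 0.00175, 0.0113, 0.000936 and 0.0148 in edgeR's quasi-likelihood test. *Btla* was not called at -0.15 (adjusted p = 0.181 in edgeR's quasi-likelihood test), and *Cxcr5* turned to 0.19 and was called higher (adjusted p = 0.0323 in the same edgeR test). *Cxcr5* was thus the member whose direction depended on the scaling, and the plot of fold changes under both scalings shows the change in place of each gene against 0.

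**Figure D3:**
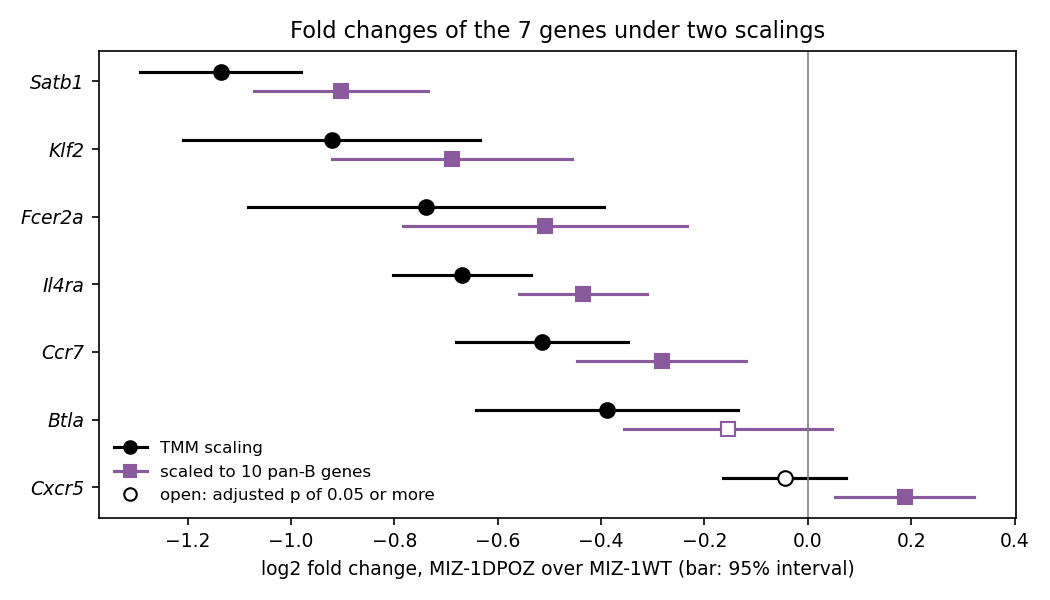
Log2 fold change of MIZ-1DPOZ over MIZ-1WT (horizontal axis) for each gene with its 95% interval, under TMM scaling (black circles) and under library sizes from 10 pan-B genes (purple squares), with open symbols for an adjusted p of 0.05 or more. *Satb1* moves from -1.14 to -0.90 and stays furthest from 0, and *Cxcr5* moves from -0.04 to 0.19.

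*Klf2*, *Satb1*, *Il4ra* and *Ccr7* were called lower under all 11 other settings tried, which changed the scaling, the filter, the tool, the pairing or left out a library. *Fcer2a* was called under 9 of them and *Btla* under 7. *Btla* also lost its call when only genes with a mean of at least 30 RPM were fitted (log2 fold change -0.31, adjusted p = 0.0637 in edgeR's quasi-likelihood test). *Cxcr5* was at 0.03 in that fit, and ranged from -0.07 to 0.19 over all 11. The plot of fold changes by setting shows *Satb1* furthest from 0 in every row. The order of the others was not fixed, since *Btla* passed *Ccr7* without MIZ-1WT replicate 1 (-0.53 against -0.47) and *Il4ra* passed *Fcer2a* without MIZ-1DPOZ replicate 1 (-0.62 against -0.52).

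**Figure D4:**
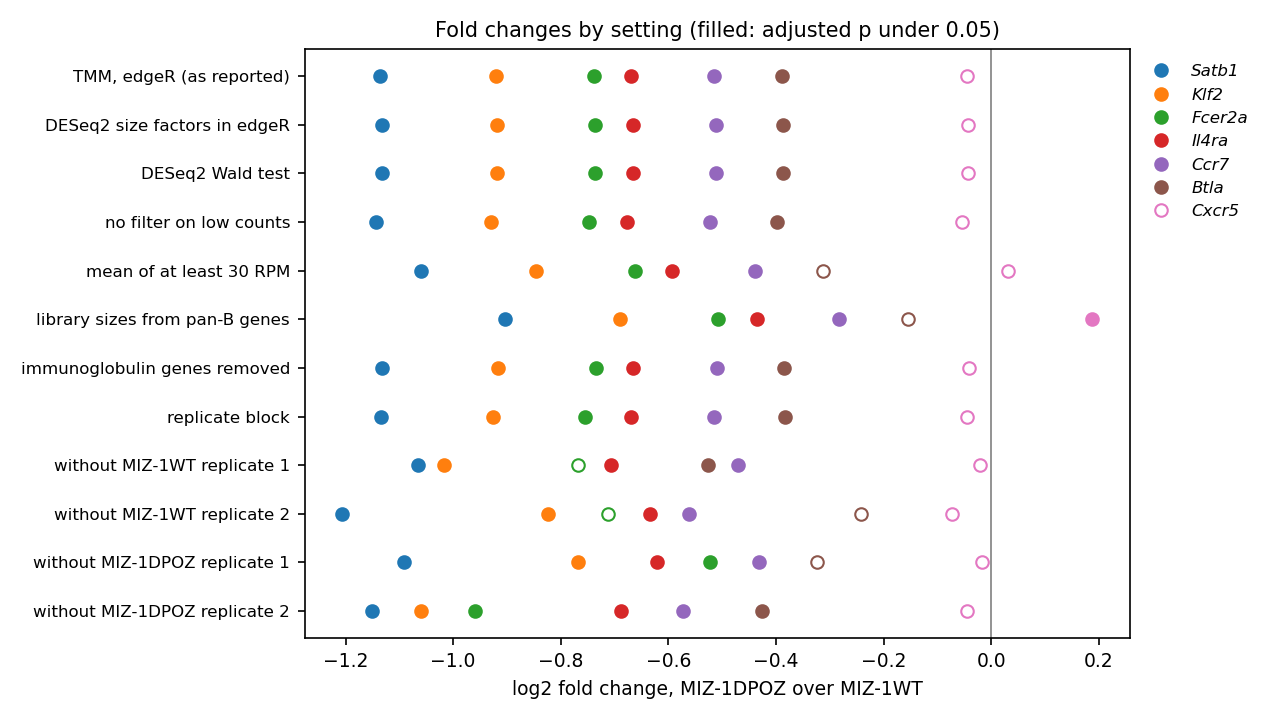
Log2 fold change of MIZ-1DPOZ over MIZ-1WT (horizontal axis) of the 7 genes, by color, in the fit as reported and in 11 other settings (rows), with filled symbols for an adjusted p under 0.05. *Satb1* lies between -1.21 and -0.90 in every row and *Cxcr5* between -0.07 and 0.19.

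The other genes of the follicular list, which are not among the 7, were lower as well. Of the 6 that were matched and tested, 5 were called lower and 0 higher, with a median of -0.47. Over all tested genes 18.9% were called lower, but this list too was chosen with earlier results of these data known. *Zfp318*, a zinc finger protein required for IgD, fell by 0.89 on the log2 scale and the integrin *Itgb7*, which serves homing to gut tissue, fell by 0.76. The transcription factor *Foxp1* (-0.42) and the ICOS ligand *Icosl* (-0.29) were also called lower. With library sizes from the pan-B genes 2 of the 6 were called lower, where 5.68% of all tested genes were. These were *Zfp318* at -0.66 and *Itgb7* at -0.53. *Foxp1* (-0.42 and -0.42) and *Icosl* (-0.33 and -0.25) were not called without MIZ-1WT replicate 1 or without replicate 2. *Ighd* was not analysed here.

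Of 7 genes linked to KLF2, 3 were called lower and 2 higher, with a median of -0.23, where 18.9% of all tested genes were called lower and 21.1% higher. *S1pr4*, a receptor for sphingosine 1-phosphate, fell by 0.89 on the log2 scale, and *Cdkn1b*, an inhibitor of the cell cycle, fell by 0.60, with *Itgb7* the third. *Myc* rose by 0.53 and *Cd69*, an activation antigen that retains lymphocytes in tissue, rose by 0.26. *Myc* was not called without MIZ-1WT replicate 2 (0.40), nor *Cd69* without MIZ-1WT replicate 1 (0.18), MIZ-1WT replicate 2 (0.35) or MIZ-1DPOZ replicate 1 (0.22). *S1pr1*, the receptor by which lymphocytes leave tissue and a textbook target of KLF2, was at 423 ± 57.2 CPM (SD, n = 2) in MIZ-1WT and 417 ± 31.1 CPM (SD, n = 2) in MIZ-1DPOZ and its groups overlapped. Per length, *Klf2* was 0.330 and 0.458 times *S1pr1* in MIZ-1WT and 0.197 and 0.218 times in MIZ-1DPOZ. Of 16 other KLF genes 13 were tested, and 4 were called lower and 1 higher, a share near the 40.0% of all tested genes called in either direction. With library sizes from the pan-B genes 2 were called lower and 2 higher, where the shares of all tested genes were 5.68% and 39.7%. *Klf13* at -0.20 and *Klf16* at -0.04 were no longer called. *Klf3* (-0.72), *Klf8* (-1.08), *Klf13* (-0.43) and *Klf16* (-0.27) were the lower ones, of which *Klf3* and *Klf8* were called in every other setting in which they were fitted. *Klf15* rose by 1.55 from 29 counts in each MIZ-1WT library. Without MIZ-1WT replicate 1 or replicate 2, *Klf13* (-0.46 and -0.41), *Klf16* (-0.30 and -0.25) and *Klf15* (1.53 and 1.58) were not called, and *Klf16* was not called without MIZ-1DPOZ replicate 1 either (-0.24).

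Around SATB1, 1 of 6 partner genes was called, where 40.0% of all tested genes were called in either direction. It was *Pml*, which encodes the scaffold of PML bodies, at -0.55 on the log2 scale, a call lost without MIZ-1WT replicate 1 (-0.50) or replicate 2 (-0.61). Around CD23, *Cr2*, which encodes the complement receptor CD21 and is high on marginal zone cells, was at 2158 ± 15.6 CPM (SD, n = 2) in MIZ-1WT and 2564 ± 131 CPM (SD, n = 2) in MIZ-1DPOZ, and rose by 0.25 on the log2 scale. This call was lost without MIZ-1WT replicate 1 (0.24), MIZ-1WT replicate 2 (0.25) or MIZ-1DPOZ replicate 2 (0.21). Per length, *Fcer2a* was 0.290 and 0.299 times *Cr2* in MIZ-1WT and 0.131 and 0.166 times in MIZ-1DPOZ, the ratio of CD23 to CD21 RNA being lower in both MIZ-1DPOZ libraries. *Fcer1g*, the signaling chain of Fc receptors on myeloid cells, rose by 1.71, and the part of macrophage RNA in this rise was not tested.

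Along the IL-4 receptor pathway 10 genes besides *Il4ra* were tested, with 2 called lower, 6 higher and a median of 0.38. Among all tested genes 18.9% were called lower and 21.1% higher. *Stat6*, the transcription factor the receptor activates, fell by 0.49 on the log2 scale from 353 ± 16.6 to 252 ± 7.01 CPM (SD, n = 2), and *Il2rg*, the common gamma chain that pairs with IL-4Ra, fell by 0.32. *Il2rg* was not called with library sizes from the pan-B genes (-0.09), nor without MIZ-1WT replicate 1 (-0.32) or replicate 2 (-0.33). Per length *Il4ra* was 1.31 and 1.38 times *Il2rg* in MIZ-1WT and 1.07 and 1.05 times in MIZ-1DPOZ. *Jak3*, the kinase bound to the gamma chain, rose by 0.52, and *Il13ra1* (1.61), a chain that also pairs with IL-4Ra, and the feedback inhibitors *Socs3* (0.91) and *Cish* (1.24) rose as well, *Cish* from 41 and 23 counts in MIZ-1WT. Without MIZ-1DPOZ replicate 1 or replicate 2, *Il13ra1* was at 1.41 and 1.82 and *Socs3* at 0.64 and 1.17. In the same fits *Jak3* was at 0.49 and 0.58 and *Cish* at 1.22 and 1.29. The part of macrophage RNA in these rises was not tested. *Socs3* was not called without MIZ-1WT replicate 1 (0.78), nor *Cish* without MIZ-1WT replicate 2 (0.91).

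In the BTLA pathway, 1 of 10 tested genes was called lower and 4 higher, with a median of 0.36. Over all tested genes 18.9% were called lower and 21.1% higher, 40.0% in either direction. *Ptpn6*, which encodes the phosphatase SHP-1 that BTLA recruits, fell by 0.48 on the log2 scale. Per length *Btla* was 0.558 and 0.684 times *Ptpn6* in MIZ-1WT and 0.638 and 0.687 times in MIZ-1DPOZ, ratios that overlapped between the genotypes. *Tnfrsf14*, which encodes HVEM, rose by 0.45, so that *Btla* was 23.8 and 32.8 times *Tnfrsf14* per length in MIZ-1WT and 14.8 and 16.6 times in MIZ-1DPOZ. *Ctla4* (1.15), *Lag3* (1.08) and *Tnfsf14* (1.12) were called higher, each from at most 89 counts in a MIZ-1WT library. Without MIZ-1WT replicate 2, *Tnfrsf14* (0.36), *Lag3* (1.21) and *Tnfsf14* (1.20) were not called. *Lag3* (0.97) and *Tnfsf14* (1.04) were not called without MIZ-1WT replicate 1, nor *Tnfsf14* without MIZ-1DPOZ replicate 1 (0.86).

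Among 10 tested genes for ligands of CCR7 and CXCR5 and their shared signaling, 4 were called lower and 2 higher, with a median of -0.16. The shares of all tested genes were 18.9% lower and 21.1% higher. *Gpr183*, another receptor that positions B cells, fell by 0.43 on the log2 scale. The receptor kinases *Grk2* (-0.32) and *Grk6* (-0.26) and the G protein subunit *Gnai3* (-0.17) were also called lower, but with library sizes from the pan-B genes only *Gpr183* was, and *Gnai3* turned to 0.06. *Gnai3* lost its call with any library left out (-0.21 to -0.13), and *Grk6* without MIZ-1WT replicate 1 (-0.29) or replicate 2 (-0.24). *Rgs1*, which damps signaling from chemokine receptors, rose by 2.34 from 1101 and 1330 counts in MIZ-1WT to 9094 and 4252 in MIZ-1DPOZ. Its higher MIZ-1DPOZ count was in replicate 1, which had the most macrophage RNA, and the part of that RNA in the rise was not tested. *Ackr4*, a scavenger of the CCR7 ligands, rose by 3.40 from 35 counts in each MIZ-1WT library to 455 and 338.

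The marker lists of other B cell states were set beside the 7 genes to show where they differed. Of 11 marginal zone genes, 9 were called higher and 0 lower, with a median of 0.67 and fold changes of those called from 0.25 for *Cr2* to 1.22, where 21.1% of all tested genes were called higher. With library sizes from the pan-B genes 10 were called higher, where 39.7% of all tested genes were. Of 6 tested transitional genes 5 were called lower, among them *Cd93*, the marker of immature B cells, at -1.13, where 18.9% of all tested genes were. With library sizes from the pan-B genes 3 of these transitional genes were called lower, where 5.68% of all tested genes were. The germinal center list had 6 genes called higher and 1 lower, with a median of 2.41, and the plasma cell list 5 higher and 0 lower of 7. The B-1 list had 4 higher and 0 lower of 6. By flow cytometry of MIZ-1DPOZ spleens, the study reported a loss mainly of follicular B cells and more frequent marginal zone B cells. How many cells of each type these libraries held was not measured here, and its part in these counts was not tested.

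**Figure D5:**
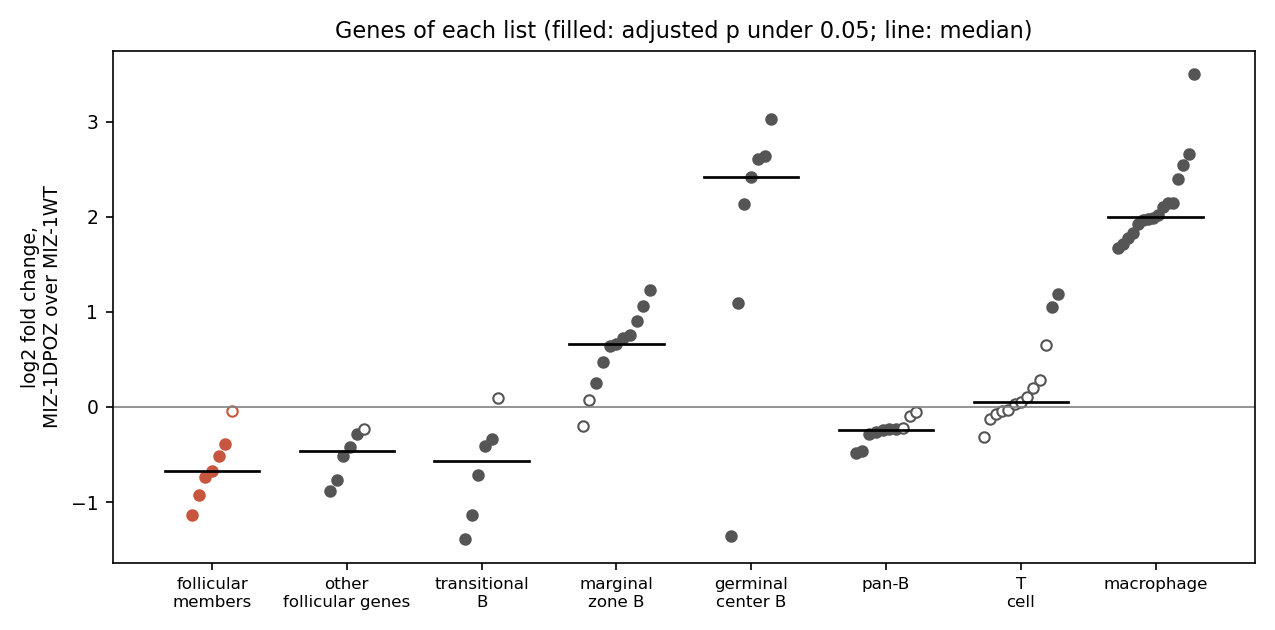
Log2 fold change of MIZ-1DPOZ over MIZ-1WT (vertical axis) of every tested gene in the 7 follicular genes (red) and in 7 marker lists (grey), with filled points for an adjusted p under 0.05 and a line at each median. The follicular genes have a median of -0.67, the other follicular genes -0.47 and the transitional genes -0.56, and the marginal zone, germinal center and macrophage lists lie mostly above 0 with medians of 0.67, 2.41 and 2.00.

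Markers of cells outside the B lineage differed in how they moved. All 16 macrophage genes were called higher, *Adgre1* by 1.71 on the log2 scale, where 21.1% of all tested genes were called higher and 18.9% lower. The part of macrophage RNA in the rises of the partner genes named above was not tested. Of 13 T cell genes 2 were called higher and 0 lower, with sums of 93.6 and 76.5 CPM in MIZ-1WT and 97.0 and 106 CPM in MIZ-1DPOZ. *Ccr7*, *Btla*, *Satb1* and *Il4ra* are also expressed by T cells, and the part of T cell RNA in their values was not tested. NK cell genes had 2 of 8 called higher, neutrophil genes 2 of 5, plasmacytoid dendritic cell genes 1 of 8, and erythroid genes 0 of 8, with none called lower. Conventional dendritic cell genes had 5 of 8 called higher and 1 lower, and of 2 tested genes of stroma and endothelium 1 was lower.

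To find genes that behaved like each of the 7, the distance over the 4 libraries between log2 CPM values centred on each gene's mean was computed for 8497 protein-coding genes with a mean of at least 10 CPM. Closest to *Klf2* was *Zfp318* (distance 0.0484, with 4 genes within 0.1) and then *Rnf144a* (0.0797). *Slamf1* (0.0486) and *Zfp36* (0.0682) were closest to *Fcer2a*, and *Gm20696* (0.0766) and *Sorl1* (0.0923) to *Satb1*, which had only 2 genes within 0.1. *Il4ra* was nearest to *Slc30a4* (0.00937) and *Gpd1l* (0.0321), with 46 genes within 0.1. *Smad7* (0.0651) and *Stx2* (0.0700) were nearest to *Btla*, and *Gripap1* (0.0153) to *Ccr7*, which had 129 genes within 0.1. For *Cxcr5* the nearest were *Clasrp* (0.0139) and *Depdc5* (0.0140), and 1160 genes lay within 0.1. Few genes lay within 0.1 of *Satb1*, *Klf2*, *Fcer2a* (4) and *Btla* (9), and many within 0.1 of *Cxcr5*. Because values were centred on each gene's mean, a gene with little change lies near every other gene with little change. These counts therefore do not show that a pattern is particular to a gene. With 4 values per gene this distance describes these libraries only.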

How the data were processed

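RNA-seq libraries from B220+ splenocytes of MIZ-1WT and MIZ-1DPOZ mice (2 libraries per genotype, 4 in all) were analysed. The authors trimmed paired-end reads with Trimmomatic, mapped them to mm10 (GRCm38) with TopHat2, for which the submitters' processing notes give version 2.1.0, and counted them per Ensembl gene with HTSeq, and these raw counts were deposited without normalization. The strand setting and Ensembl release are not given in the sources used here. The summary lines of HTSeq entered neither library sizes nor tests. They held 21.1% to 27.2% of the table as reads outside genes (fewer in MIZ-1DPOZ), 0.281% to 0.302% as ambiguous and 42.8% to 44.1% as not uniquely aligned.

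Gene counts were normalized by TMM (factors 0.977 to 1.03). Genes reaching 10 counts in 2 libraries or more (14554 of 41214) were fitted with edgeR version 4.0.16 in R version 4.3.3 by the quasi-likelihood test without covariates, with Benjamini-Hochberg adjustment and a threshold of 0.05. The common dispersion was 0.00848. Standard errors were taken from the log2 fold change and its F statistic. The p-values rest on the spread between the 2 libraries of each genotype, with each gene's variance drawn toward a trend over all fitted genes. CPM used the TMM library sizes, log2 CPM a prior count of 2, and RPKM the summed exon length of GENCODE, from which 40340 genes took a symbol. Motifs were searched on both strands. The genes named were the 7 genes, the called genes of each partner list (at most 4 per direction, by p), the defining markers, the targeted gene and Cre locus, sex-linked genes and the 2 nearest genes in pattern. *S1pr1* and *Bcl9l* were added after their values were seen. Some genes that meet the rule are left out of the text. The 7 genes and the lists were chosen with earlier results of these data known.

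On simulated counts over 14509 genes, the test of MIZ-1DPOZ over MIZ-1WT recovered 34.0% of 106 genes changed by 0.5 on the log2 scale and 86.2% of 94 changed by 1, with 6 false calls among 123. Every simulated gene had the common dispersion, directions were drawn at random, and all other genes were equal between genotypes. The simulation held no shift in macrophage or pan-B RNA and far fewer changed genes, so it does not give the rate of false calls in the real libraries. Alternatives were DESeq2's size factors, DESeq2 itself (version 1.42.0, Wald test), no count filter, a filter at a mean of 30 RPM (reads scaled to a common library total without TMM), library sizes from 10 pan-B genes, removal of 252 immunoglobulin genes, a replicate block and leaving out each library.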

Additional observations from a re-analysis of the deposited data

How the results depend on the processing

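Of the log2 fold changes of the 7 genes, those of *Klf2*, *Satb1*, *Il4ra* and *Ccr7* kept their direction and their call under all 11 alternatives. With each library left out in turn they ranged from -1.06 to -0.77, -1.21 to -1.07, -0.71 to -0.62 and -0.57 to -0.43, and those of *Fcer2a*, *Btla* and *Cxcr5* from -0.96 to -0.52, -0.53 to -0.24 and -0.07 to -0.02. *Fcer2a* lost its call without either MIZ-1WT library (-0.77 and -0.71), and *Btla* without MIZ-1WT replicate 2 (-0.24) or MIZ-1DPOZ replicate 1 (-0.32). Restricting the fit to the 6052 genes with a mean of 30 RPM or more gave -0.31 for *Btla*, no longer called, and 0.0312 for *Cxcr5*. Library sizes from pan-B genes gave -0.15 for *Btla*, no longer called, and 0.19 for *Cxcr5*. So 1 of the 7 genes was called higher, where 39.7% of all tested genes were. That scaling shifted the median log2 fold change of all genes by 0.23, and why the pan-B genes were lower was not tested. In that fit *Gnai3* was at 0.0636, *S1pr1* at 0.21, *Clasrp* at 0.19 and *Depdc5* at 0.18, all turned in direction. The 30 RPM filter turned *S1pr1* (0.0530), *Clasrp* (0.0311) and *Depdc5* (0.0224), and *S1pr1* ranged from -0.16 to 0.12 with a library left out, above 0 without MIZ-1WT replicate 1 or MIZ-1DPOZ replicate 1.

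Over all genes, 2746 were called lower and 3076 higher. The 30 RPM filter gave 1282 and 1464 with fewer genes fitted, and pan-B library sizes 826 and 5773, so that 87.5% of calls were higher against 52.8% with TMM. Leaving out a library gave 848 to 2625 lower and 1374 to 2955 higher, the lowest without MIZ-1WT replicate 1.

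Deviations of equally numbered libraries correlated at -0.0688 over 14554 genes, which showed no pairing by replicate number over all genes but cannot exclude it for single genes. With replicate as a block, standard errors fell for *Klf2* (0.12 to 0.07), *Fcer2a* (0.14 to 0.10) and *Btla* (0.10 to 0.07). They rose for *Satb1*, *Il4ra*, *Ccr7* and *Cxcr5*. A replicate block gave 2099 lower and 2633 higher, and log2 fold changes of -0.93 for *Klf2*, -1.13 for *Satb1*, -0.75 for *Fcer2a*, -0.67 for *Il4ra*, -0.38 for *Btla*, -0.52 for *Ccr7* and -0.04 for *Cxcr5*, with every call of the 7 genes as without it. Of the other genes named, *Cd69* (0.26), *Klf16* (-0.27) and *Gnai3* (-0.17) were not called with the block.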
